A study of Rattus norvegicus with 9 samples.

Results

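The phase II conjugation enzymes of rat liver were described here in 4 families. The members were taken by symbol from the rat RefSeq genes: the glutathione S-transferases (Gst alpha, mu, pi, theta, omega, kappa and zeta), the microsomal glutathione S-transferases (Mgst), the UDP-glucuronosyltransferases (Ugt) and the sulfotransferases (Sult). Of 81 such symbols, which include pseudogenes, 45 were matched to an array probe by RefSeq accession. The zeta gene Gstz1 was not matched, and a gene without a match may still have an unnamed probe. A member was kept when at least 1 group had its probe flagged as well above background on each of the group's 3 arrays. This left 39 genes with 47 probes, out of 25369 probes kept in the same way. These were 17 Gst, 2 Mgst, 10 Ugt and 10 Sult genes. Of the other 6 members, Gstm6l, Gstt4, Sult1d1, Ugt2a1 and Ugt8 were above background on 0 arrays and Sult4a1 on 1 TBI array.

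The livers came from 9 male Wistar rats, sampled 24 h after exposure, and each liver's RNA was read on its own one-colour Agilent array. The control group (n = 3) received neither irradiation nor HSC. The TBI group (n = 3) received 6.5 Gy of total-body irradiation from a 60Co source. The HSC + TBI group (n = 3) was given Hong Shan Capsule, a preparation of medicinal herbs, by stomach tube for 3 days before the same irradiation. The sample labels give its dose as 30 mg/kg/day and the series text as 10 g/kg/day. No group received HSC without irradiation. HSC + TBI against control therefore combines irradiation with HSC, and only HSC + TBI against TBI compares 2 irradiated groups. The rats' age is not given in the sources used here. Each signal is a log2 value after quantile normalization of the 9 arrays, each group value is a mean ± SD of 3 rats, and each difference is a log2 fold change. A gene with several probes is represented by its brightest. A gene was called when limma's Benjamini-Hochberg adjusted p over all 25369 probes was under 0.05 and its fold change was at least 1.5.

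Phase II enzymes attach a polar group to drugs, hormones, bilirubin and reactive products so that bile or urine can carry them away. Gst enzymes join glutathione to electrophiles, and Mgst enzymes are membrane-bound relatives that also reduce lipid peroxides. Ugt enzymes of the endoplasmic reticulum transfer glucuronic acid from UDP-glucuronic acid, and cytosolic Sult enzymes transfer sulphate from PAPS. Hepatocytes hold most of these enzymes in the liver, and several families lie in gene clusters of near-identical paralogs. Probe sequences were not used here, so how far a probe also binds a paralog's RNA is unknown, and this touches the Gst mu, Ugt1a, Ugt2b, Sult1c and Sult2a genes most.

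The 3 control arrays lay on 1 slide, the 3 TBI arrays on another and the HSC + TBI arrays on 2 more, so slide and group cannot be told apart. HSC + TBI 2 was alone on its slide. The share of probes above background was 56.6% to 59.3% on control arrays, 63.6% to 69.5% on TBI arrays and 58.7% to 60.5% on HSC + TBI arrays. Of 8 hepatocyte markers, all were measured and 0 were called in any comparison. Their mean signal per rat was 17.47 to 17.58 in control, 17.43 to 17.59 in TBI and 17.50 to 17.54 in HSC + TBI. The mean of 8 pericentral hepatocyte markers was 11.39 to 11.58 in control, 11.55 to 11.88 in TBI and 11.27 to 11.68 in HSC + TBI. That of 8 periportal hepatocyte markers was 13.21 to 13.48, 13.08 to 13.24 and 13.09 to 13.37, with 0 called in either list. Their median log2 fold changes after TBI were 0.35 and -0.21. Of 8 leukocyte markers 5 were measured, with a mean signal of 7.17 to 7.39 in control, 5.25 to 5.99 in TBI and 5.39 to 5.70 in HSC + TBI. Cd2 and Cd79b passed the filter only through the control arrays and were above background on 0 TBI arrays, so that mean rests partly on values below background. The other 3, Ptprc, Cd3d and Nkg7, were not called. The mean of 7 Kupffer cell markers was 10.16 to 10.86 in control, 10.52 to 11.40 in TBI and 10.06 to 10.13 in HSC + TBI, and that of 3 erythroid markers was 7.96 to 9.51, 8.27 to 9.0 and 7.66 to 8.08, with 0 called in either list. Of 5 stellate cell markers, Lrat was called lower after TBI. Of 4 sinusoidal endothelial and 2 cholangiocyte markers, 0 were called. The part of these markers in the phase II values was not tested. In whole liver, fewer cells of a type and less RNA per cell cannot be told apart.

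The share of phase II genes called 24 h after TBI was near that of all probes. Against control, Gstp3, Gstt2 and Sult1c2 fell and 0 members rose, which is 3 of 39 (7.69%), while 7.25% of all tested probes were called. Over all probes, 3.54% were called higher and 3.71% lower. Of the 39 members, 15 had a higher and 24 a lower mean after TBI. The median log2 fold change was -0.09, against -0.01 for all tested probes, and the members ranged from -1.74 to 0.92. The values of TBI and control rats did not overlap for 17 members (43.6%), against 28.9% of all probes, and 29 members had a fold change under 1.5 in either direction.

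After HSC + TBI, Ugt2b1 rose against control and against TBI, and no other member was called in either comparison. Against control this is 1 of 39 (2.56%), while 3.23% of all probes were called (1.19% higher and 2.05% lower). Against TBI it is again 1 of 39 (2.56%), while 0.796% of all probes were called (0.233% higher and 0.564% lower). These comparisons share the HSC + TBI rats. The median log2 fold change of the members was 0.01 against control and 0.14 against TBI, beside 0.05 and 0.06 for all probes. The HSC + TBI rats did not overlap with control for 15 members (38.5%) and with TBI for 5 (12.8%), beside 31.7% and 21.4% of all probes. At an unadjusted p under 0.05 stood 15 members for TBI against control, 9 for HSC + TBI against control and 5 for HSC + TBI against TBI, where the shares of all probes were 25.5%, 19.6% and 16.3%. By limma's F-test over the 3 groups, Ugt2b1 alone among the 39 members (2.56%) differed (adjusted p = 0.00958), while 6.89% of all probes did.

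**Figure D1:**
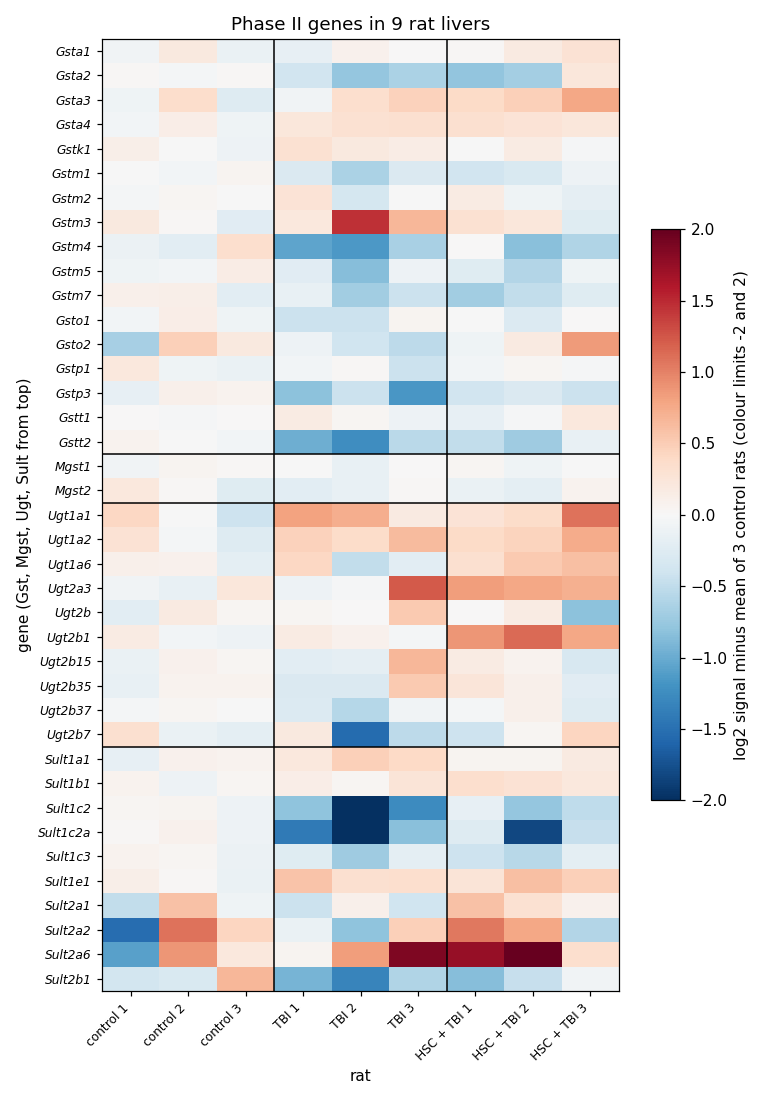
Each row is 1 of the 39 phase II genes and each column 1 rat. The colour is the log2 signal minus the mean of the 3 control rats, red above and blue below, with colours limited to -2 and 2. The Sult1c2 and Sult1c2a rows are bluest in TBI 2, and the Ugt2b1 row is reddest in the HSC + TBI rats.

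The Gst genes had a median log2 fold change of -0.27 for TBI against control, with 5 higher and 12 lower means, of which 2 were called. After HSC + TBI the median against control was -0.04, with 7 higher and 10 lower means and 0 called. Under scaling by the 75th percentile of each array that median was 0.05, so its sign depended on the scaling.

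Gstp3 belongs to the pi class, which conjugates glutathione to small electrophiles. Its signal was 16.32, 16.59 and 16.55 in the control rats, 15.68, 16.06 and 15.33 in the TBI rats and 16.10, 16.20 and 16.07 in the HSC + TBI rats. Every TBI and every HSC + TBI rat lay below every control rat. The means were 16.49 ± 0.15, 15.69 ± 0.36 and 16.12 ± 0.07 (SD, n = 3 each). For TBI against control the difference was -0.80 (SE 0.18, 95% interval -1.21 to -0.38, limma adjusted p = 0.0335). For HSC + TBI against control it was -0.37 (adjusted p = 0.311) and against TBI 0.43 (adjusted p = 0.289), neither of which passed. The call was lost with 7 of the 9 rats left out in turn, and was kept without TBI 2 and without TBI 3. Over these 9 cases the difference ranged from -0.99 to -0.62. Gstp1, its direct neighbour on chromosome 1 and the pi-class gene known as a marker of preneoplastic rat liver foci, differed by -0.15 (interval -0.50 to 0.19) after TBI.

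The 250 bases before the Gstp3 start are shown because the gene fell. They lie at chr1:210787685-210787934 on the minus strand (RefSeq, GRCr8) and hold 1 match to GCGTG, the core to which the aryl hydrocarbon receptor binds, in capitals.
Gstp3: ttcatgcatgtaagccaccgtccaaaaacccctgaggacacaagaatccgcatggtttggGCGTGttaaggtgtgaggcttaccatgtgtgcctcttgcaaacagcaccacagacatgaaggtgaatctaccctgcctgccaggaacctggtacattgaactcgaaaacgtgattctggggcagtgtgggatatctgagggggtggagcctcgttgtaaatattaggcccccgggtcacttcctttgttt
The match begins 190 bases before the start. GCGTG, searched on both strands, was in 9 of the 36 members with a promoter entry (25.0%) and in 25.9% of all 33469 promoters.

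Gstt2, a theta-class enzyme that acts on sulphate esters and peroxides, lay at 11.96, 11.87 and 11.82 in control, 10.91, 10.64 and 11.35 in TBI and 11.39, 11.18 and 11.74 in HSC + TBI. All irradiated rats were below the lowest control rat. The difference after TBI was -0.92 (SE 0.20, interval -1.38 to -0.45, limma adjusted p = 0.0306), a 1.89-fold lower signal. A second Gstt2 probe read 9.47, 9.55 and 9.64 in control against 8.93, 8.93 and 9.52 in TBI. There TBI 3 lay within the control range, and the difference of -0.43 did not pass (adjusted p = 0.213). The call of the brightest probe was kept without TBI 3, HSC + TBI 2 or HSC + TBI 3 and lost with each of the other 6 rats left out (-0.95 to -0.75). After HSC + TBI the brightest probe differed by -0.45 from control (adjusted p = 0.271). Gstt1, a theta-class gene near it on chromosome 20, differed by 0.03 (interval -0.26 to 0.33) after TBI and by 0.01 (interval -0.29 to 0.30) after HSC + TBI.

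The mu class, cytosolic enzymes with broad activity on electrophiles, had 5 of 6 lower means after TBI (median -0.40) and 0 calls. Gstm4 read 10.29, 10.20 and 10.75 in control, 9.35, 9.26 and 9.77 in TBI and 10.43, 9.58 and 9.82 in HSC + TBI. The TBI rats lay below all control rats while HSC + TBI 1 lay among them. Its difference after TBI, -0.95 (SE 0.25, interval -1.52 to -0.38), did not pass (adjusted p = 0.0543) and was called with TBI 3 or HSC + TBI 1 left out. Gstm1 differed by -0.41 (adjusted p = 0.106), Gstm7 by -0.43 (adjusted p = 0.188) and Gstm2, which lies between Gstm3 and Gstm1 on chromosome 2, by -0.03.

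Gstm3 was the 1 mu gene with a higher mean after TBI. It read 6.23, 6.05 and 5.80 in control, 6.23, 7.49 and 6.68 in TBI and 6.33, 6.26 and 5.78 in HSC + TBI. TBI 2 and TBI 3 stood above every other rat. The difference was 0.78 (adjusted p = 0.157) for TBI against control and -0.67 (adjusted p = 0.323) for HSC + TBI against TBI.

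The alpha class holds the most studied hepatocyte transferases. Gsta2 read 15.80, 15.74 and 15.80 in control, 15.39, 15.01 and 15.14 in TBI and 14.99, 15.09 and 16.01 in HSC + TBI. The TBI rats, HSC + TBI 1 and HSC + TBI 2 lay below control, and HSC + TBI 3 lay above it. A second probe read 16.22, 16.01 and 16.18 in control, 15.19, 14.76 and 14.86 in TBI and 14.66, 14.70 and 16.21 in HSC + TBI. On it HSC + TBI 3 lay among the control rats and the other irradiated rats below them. Over the 9 rats the 2 probes correlated at r = 0.98, as a description. The differences after TBI of -0.60 (adjusted p = 0.183) and -1.20 (adjusted p = 0.0876) did not pass, but with HSC + TBI 3 left out the brightest probe was called (-0.60). Gsta1 differed by -0.02 (interval -0.33 to 0.28) after TBI, Gsta3 by 0.24 (adjusted p = 0.499) and Gsta4, which conjugates the lipid peroxidation product 4-hydroxynonenal, by 0.28 (adjusted p = 0.142). Against control after HSC + TBI, Gsta3 differed by 0.55 (adjusted p = 0.191) and Gsta4 by 0.27 (adjusted p = 0.203).

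The omega-class genes Gsto1 and Gsto2, which reduce arsenic species and dehydroascorbate, and Gstk1, the mitochondrial and peroxisomal kappa enzyme, were not called. Gsto1 differed by -0.27, Gsto2 by -0.34 and Gstk1 by 0.21 after TBI. Gsto2 was not above background on control 1.

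The Mgst genes differed little between groups. Mgst1, abundant in the endoplasmic reticulum and outer mitochondrial membrane, read 15.76, 15.88 and 15.85 in control, 15.82, 15.68 and 15.84 in TBI and 15.87, 15.75 and 15.82 in HSC + TBI. The 3 groups overlapped throughout. Its difference was -0.05 (interval -0.28 to 0.19) after TBI and -0.02 (interval -0.25 to 0.22) after HSC + TBI, and both intervals lie within a 1.5-fold change. Mgst2, which can also make leukotriene C4, differed by -0.11 (interval -0.45 to 0.22) after TBI.

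**Figure D2:**
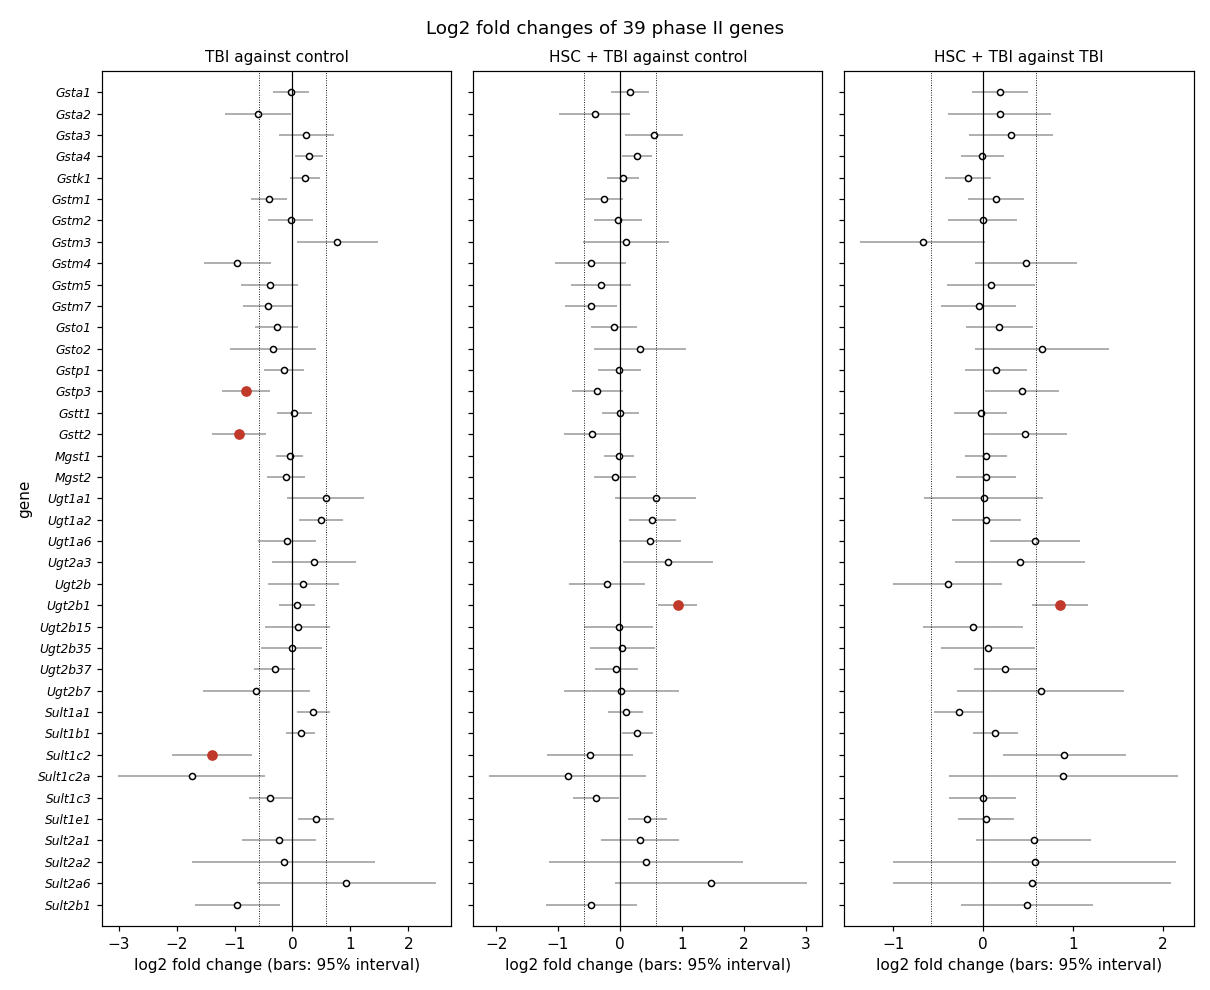
Log2 fold changes of the 39 phase II genes in the 3 comparisons, with bars for the 95% interval and dotted lines at a 1.5-fold change. Red points are called: Gstp3, Gstt2 and Sult1c2 after TBI, and Ugt2b1 after HSC + TBI against either group. The x axes differ between panels.

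The Ugt genes had 6 higher and 4 lower means after TBI (median 0.08, 0 called) and 7 higher and 3 lower after HSC + TBI against control (median 0.26, 1 called). Ugt2b1, a family 2 enzyme that glucuronidates steroids and drugs, was the called gene. It read 13.36, 13.14 and 13.09 in control, 13.37, 13.29 and 13.16 in TBI and 14.09, 14.33 and 13.97 in HSC + TBI. All HSC + TBI rats lay above all other rats, and the control and TBI rats overlapped. The means were 13.20 ± 0.14, 13.27 ± 0.11 and 14.13 ± 0.18 (SD, n = 3 each).

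For HSC + TBI against control, Ugt2b1 rose by 0.93 (SE 0.14, interval 0.62 to 1.24, limma adjusted p = 0.00979), a 1.91-fold higher signal. The call was kept with each of the 9 rats left out (0.83 to 1.01). For HSC + TBI against TBI it rose by 0.86 (SE 0.14, interval 0.55 to 1.17, adjusted p = 0.0404), 1.81-fold. This call was kept with TBI 1 or TBI 3 left out and lost with each of the other 7 rats left out, where the difference was 0.76 to 0.94 and the adjusted p 0.0508 to 0.13. For TBI against control it differed by 0.07 (interval -0.24 to 0.39, adjusted p = 0.767). Both HSC + TBI comparisons involve arrays on slides that held no other group.

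The 250 bases before the Ugt2b1 start lie at chr14:21378632-21378881 on the plus strand (RefSeq, GRCr8). They are shown because the gene was the 1 member called after HSC + TBI.
Ugt2b1: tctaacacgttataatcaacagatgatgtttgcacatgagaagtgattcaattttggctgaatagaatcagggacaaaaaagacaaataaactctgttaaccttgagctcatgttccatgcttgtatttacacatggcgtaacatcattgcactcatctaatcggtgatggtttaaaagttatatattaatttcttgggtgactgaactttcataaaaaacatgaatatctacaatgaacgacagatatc
None of the 4 motifs searched was in this window, so no base is in capitals. The motifs, searched on both strands, were TGACNNNGC (the antioxidant response element core), the GCGTG core above, GTTAAT (a half-site of the hepatocyte factor HNF1) and AGGTCA (a nuclear receptor half-site).

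The other family 2 genes, which lie in 1 cluster with Ugt2b1 on chromosome 14, were not called. After HSC + TBI the differences from control of Ugt2b, Ugt2b7, Ugt2b15, Ugt2b35 and Ugt2b37 lay between -0.21 and 0.04. Ugt2b read 16.06, 16.46 and 16.31 in control, 16.31, 16.28 and 16.80 in TBI and 16.29, 16.45 and 15.46 in HSC + TBI. HSC + TBI 3 was the lowest rat, also on a second probe at 9.81, where the other 8 rats lay between 10.48 and 10.95. Ugt2b15 and Ugt2b35 followed each other closely (r = 0.96 over 9 rats), with TBI 3 the highest rat for both at 14.66 and 15.35. Ugt2a3 read 6.89, 6.82 and 7.20 in control, 6.87, 6.95 and 8.19 in TBI and 7.81, 7.74 and 7.68 in HSC + TBI. All HSC + TBI rats lay above all control rats, and the difference of 0.77 did not pass (adjusted p = 0.226) except with TBI 3 left out. Ugt2b7, not above background on TBI 2, differed by -0.62 after TBI (adjusted p = 0.374), and Ugt2b37 by -0.31 (adjusted p = 0.249).

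The Ugt1a genes share their last exons and differ in the first, and Ugt1a1 is the enzyme that conjugates bilirubin. Ugt1a1 read 10.01, 9.59 and 9.18 in control, 10.40, 10.32 and 9.78 in TBI and 9.87, 9.96 and 10.68 in HSC + TBI. The groups overlapped, with differences from control of 0.57 (adjusted p = 0.257) and 0.58 (adjusted p = 0.316). Ugt1a2 had 2 probes. The brightest read 12.70, 12.37 and 12.16 in control, 12.87, 12.78 and 13.04 in TBI and 12.79, 12.86 and 13.15 in HSC + TBI. Each irradiated rat lay above each control rat, but the differences of 0.49 (adjusted p = 0.115) and 0.52 (adjusted p = 0.136) did not pass. The second probe read 11.70, 11.55 and 11.07 in control against 12.11, 12.12 and 12.06 in TBI. It was called for TBI against control at 0.65 (SE 0.16, adjusted p = 0.0469). That call was kept with control 1 left out (0.78) and lost with each of the other 8 rats left out (0.47 to 0.71). Ugt1a6, which prefers planar phenols, differed by -0.09 after TBI and by 0.48 after HSC + TBI (adjusted p = 0.273).

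The Ugt1a2 promoter is shown for its 2 matches to the HNF1 half-site, in capitals as the reverse complement of GTTAAT, at chr9:96238769-96239018 on the plus strand (RefSeq, GRCr8).
Ugt1a2: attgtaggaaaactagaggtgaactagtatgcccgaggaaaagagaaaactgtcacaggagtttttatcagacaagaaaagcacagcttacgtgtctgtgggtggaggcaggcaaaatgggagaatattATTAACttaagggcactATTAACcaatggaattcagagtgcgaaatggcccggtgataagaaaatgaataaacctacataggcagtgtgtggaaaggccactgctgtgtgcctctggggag
The matches begin 121 and 104 bases before the start. GTTAAT was in 7 of the 36 members with an entry (19.4%), namely Gsta3, Sult2a2, Sult2a6, Ugt1a1, Ugt1a2, Ugt1a6 and Ugt2a3, and in 6.45% of all promoters. Several of these genes are paralogs in 1 cluster, so they are not independent. TGACNNNGC was in 4 members (11.1%), against 10.1% of all promoters, and AGGTCA in 5 (13.9%), against 14.1%. A match says only that these letters occur in the window.

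**Figure D3:**
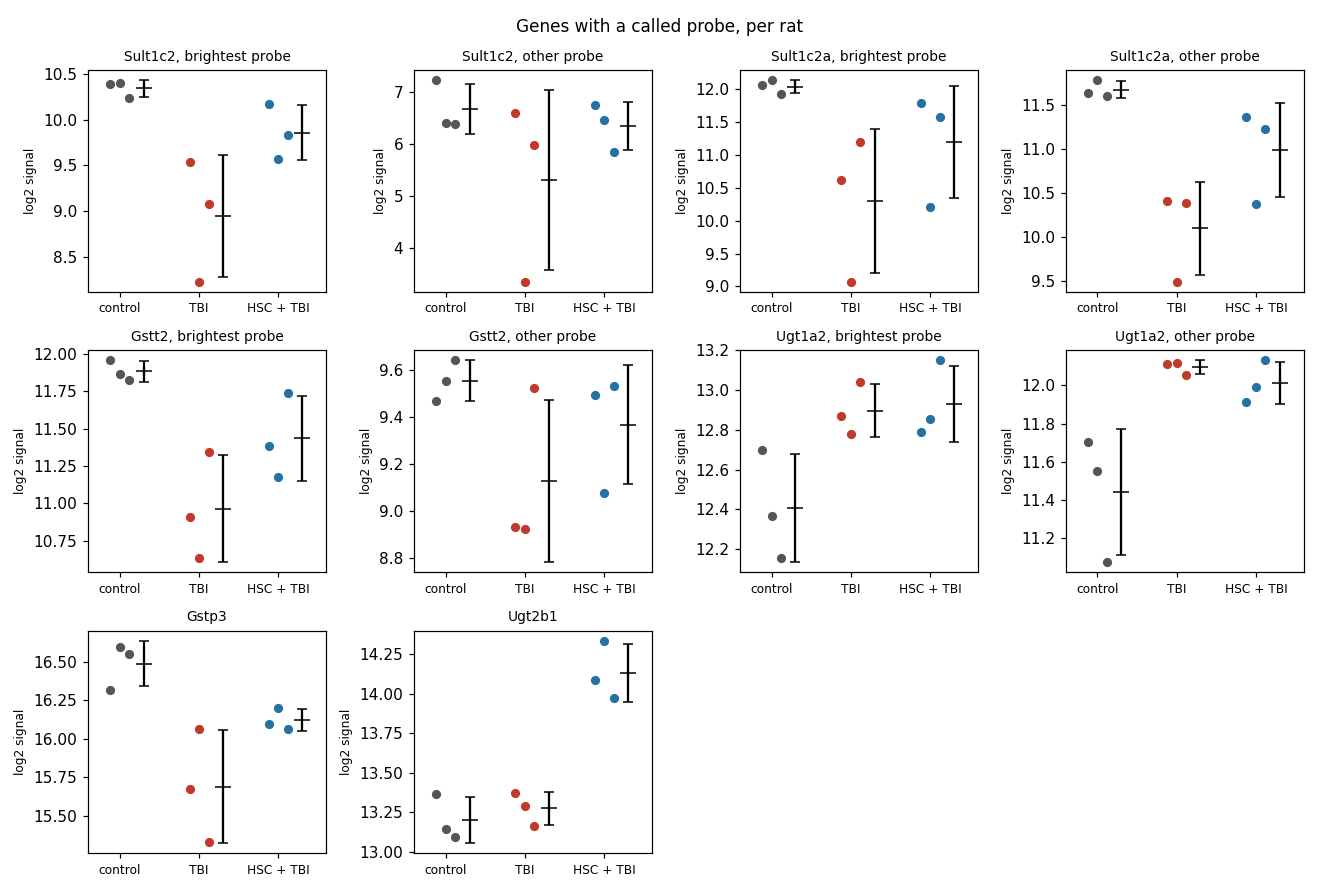
Log2 signal of each rat for the 6 genes with a called probe, 1 panel per probe, with the mean and SD of 3 rats beside the points. Each y axis has its own range and does not start at 0. In the Ugt2b1 panel the HSC + TBI rats, at 13.97 to 14.33, lie above all others, and TBI 2 is the lowest rat in all 4 Sult1c panels.

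The Sult genes had 4 higher and 6 lower means after TBI (median -0.20, 1 called). After HSC + TBI they had 6 higher and 4 lower against control (median 0.19) and 8 higher and 2 lower against TBI (median 0.52), with 0 called in each. The Sult1c genes lie near each other on chromosome 9 and sulphate phenols and N-hydroxyarylamines. On the brightest probe of each, every TBI rat lay below every control rat. Sult1c2 read 10.39, 10.40 and 10.23 in control, 9.54, 8.24 and 9.09 in TBI and 10.17, 9.57 and 9.83 in HSC + TBI. The HSC + TBI rats lay between the others without overlap. The means were 10.34 ± 0.09, 8.95 ± 0.66 and 9.86 ± 0.30 (SD, n = 3 each).

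Sult1c2 fell by 1.39 after TBI (SE 0.30, interval -2.08 to -0.70, limma adjusted p = 0.0284), a 2.62-fold lower signal. It was called with each irradiated rat left out, and lost with any 1 of the 3 control rats left out (adjusted p = 0.0766 to 0.0803). Without TBI 2 the difference was -1.03. After HSC + TBI it differed by -0.48 from control (adjusted p = 0.426) and by 0.91 from TBI (interval 0.22 to 1.59, adjusted p = 0.197). A dimmer Sult1c2 probe differed by -1.36 after TBI and did not pass (adjusted p = 0.285), with TBI 2 at 3.36 and the other 8 rats between 5.84 and 7.23. On that probe TBI 1, at 6.60, lay within the control range of 6.38 to 7.23.

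Sult1c2a read 12.05, 12.13 and 11.93 in control, 10.62, 9.07 and 11.19 in TBI and 11.78, 10.21 and 11.58 in HSC + TBI on its brightest probe. All irradiated rats lay below all control rats, with TBI 2 and HSC + TBI 2 lowest in their groups. For HSC + TBI 2, alone on its slide, rat and slide cannot be told apart. The difference after TBI was -1.74 (SE 0.56, interval -3.01 to -0.47) and did not pass (adjusted p = 0.0938). The second probe read 11.63, 11.79 and 11.60 in control, 10.41, 9.49 and 10.39 in TBI and 11.36, 10.38 and 11.22 in HSC + TBI. There the difference of -1.58 (SE 0.31, adjusted p = 0.0197) was called, and this call too was lost with any 1 control rat left out. Sult1c3 differed by -0.38 after TBI (adjusted p = 0.188) and by -0.39 after HSC + TBI (adjusted p = 0.241).

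The windows before the Sult1c2 and Sult1c2a starts are shown because both genes had low signals in the same rats. Their signals correlated at r = 0.91 over 9 rats, and at 0.81 after subtracting group means. Sult1c2 is at chr9:7436731-7436980 on the plus strand and Sult1c2a at chr9:7103203-7103452 on the minus strand (RefSeq, GRCr8).
Sult1c2: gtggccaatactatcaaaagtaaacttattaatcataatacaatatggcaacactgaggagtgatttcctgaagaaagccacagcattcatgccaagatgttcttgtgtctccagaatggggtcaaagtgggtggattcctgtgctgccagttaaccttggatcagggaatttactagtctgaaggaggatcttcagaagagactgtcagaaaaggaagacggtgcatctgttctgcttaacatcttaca
Sult1c2a: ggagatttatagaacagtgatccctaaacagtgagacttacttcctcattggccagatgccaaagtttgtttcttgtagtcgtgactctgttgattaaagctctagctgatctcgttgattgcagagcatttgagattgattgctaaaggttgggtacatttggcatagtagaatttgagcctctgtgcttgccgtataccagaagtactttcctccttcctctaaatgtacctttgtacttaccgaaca
A global alignment matched 111 of 237 aligned bases (46.8%). Neither window held any of the 4 motifs.

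Sult1a1, the main phenol sulfotransferase, read 14.32 to 14.57 in control and 14.69 to 14.95 in TBI, without overlap, and the difference of 0.36 did not pass (adjusted p = 0.112). Sult1e1, which sulphates oestrogens, read 12.57, 12.48 and 12.32 in control, 13.02, 12.78 and 12.79 in TBI and 12.71, 13.06 and 12.92 in HSC + TBI. Every irradiated rat was above every control rat, with differences of 0.41 (adjusted p = 0.105) and 0.44 (adjusted p = 0.122). Sult1b1, which acts on thyroid hormones, differed by 0.14 after TBI and 0.28 after HSC + TBI (adjusted p = 0.213). Its second probe differed by 0.18 and 0.43 (adjusted p = 0.0945 after HSC + TBI) and was not called. On that second probe all HSC + TBI rats lay above all other rats. Sult2b1, a cholesterol sulfotransferase of low signal here, differed by -0.95 after TBI (adjusted p = 0.112).

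The Sult2a genes, which sulphate bile acids and hydroxysteroids, included the members with the widest spread within groups, Sult2a2 and Sult2a6. Sult2a6 read 12.11, 14.08 and 13.41 in control, 13.26, 14.04 and 15.08 in TBI and 14.94, 15.55 and 13.53 in HSC + TBI. Its pooled SD within groups was 0.98, higher than that of 98.5% of all tested probes. Its difference after HSC + TBI was the highest point estimate of any member at 1.47, but the interval of -0.07 to 3.02 included 0 (adjusted p = 0.276). After TBI it was 0.92 (interval -0.62 to 2.47). Sult2a2 had a pooled SD of 1.0 and correlated with Sult2a6 at r = 0.74, with control 1 the lowest rat for both. Sult2a1 read 14.56, 15.64 and 14.97 in control and 15.64, 15.36 and 15.14 in HSC + TBI, and differed by 0.32. Over all 39 members the median pooled SD was 0.27, against 0.23 for all tested probes, and Mgst1 had the lowest at 0.07.

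**Figure D4:**
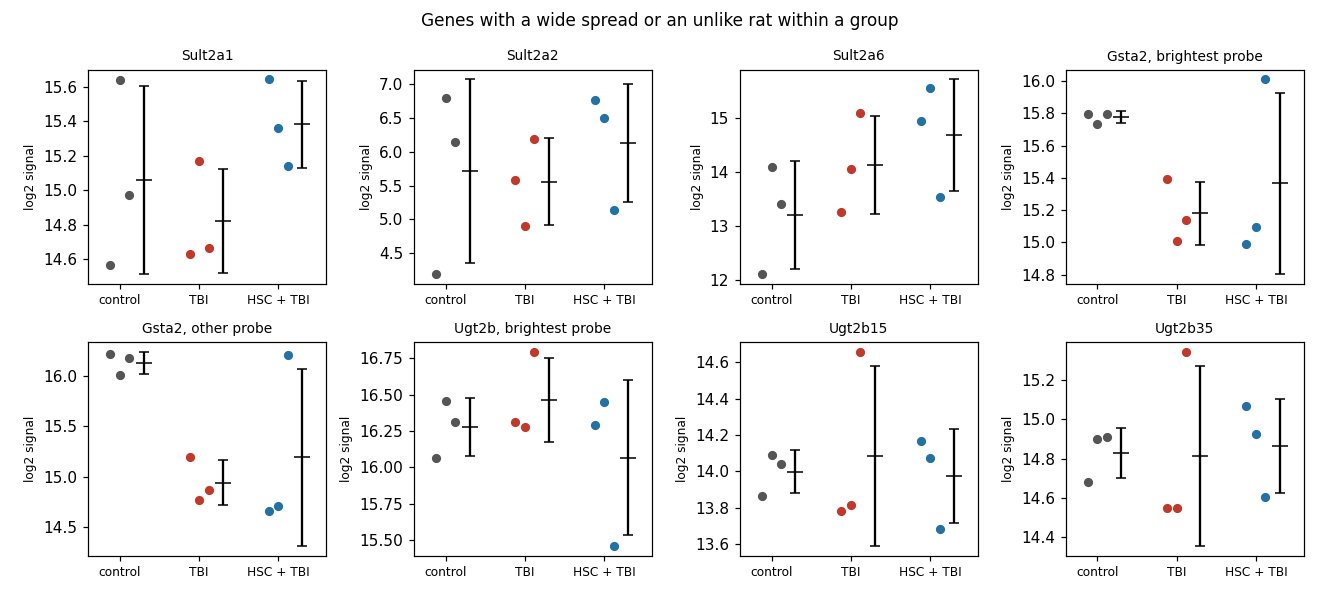
Log2 signal of each rat for genes with a wide spread or a rat unlike the others of its group, with the mean and SD of 3 rats. Each y axis has its own range and does not start at 0. Control 1 is lowest for Sult2a6 at 12.11, and HSC + TBI 3 lies above the controls on the brightest Gsta2 probe and among them on the other.

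A wider list held 57 genes that feed, complement, export or regulate conjugation, chosen with earlier results known, and 49 of them were tested. After TBI 4 rose and 7 fell (22.4%, beside 7.25% of all probes). After HSC + TBI against control 2 rose and 2 fell (8.16%, beside 3.23%), and against TBI 1 rose (2.04%, beside 0.796%).

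Among regulators, Nfe2l2, which encodes the factor Nrf2 that drives many Gst genes under oxidative stress, was the 1 of 14 genes called. It read 11.40, 11.18 and 11.23 in control, 12.56, 12.15 and 12.47 in TBI and 12.26, 12.13 and 12.16 in HSC + TBI. Its rise was 1.12 (SE 0.14, limma adjusted p = 0.00309) after TBI and 0.91 (adjusted p = 0.0104) after HSC + TBI. Nqo1, another Nrf2 target, differed by 1.05 (adjusted p = 0.0837) and 1.14 (adjusted p = 0.098) and was not called. Of the 17 Gst genes, 5 had a higher and 12 a lower mean after TBI. Whether Nrf2 acted on any of these genes was not tested. The xenobiotic receptor genes Nr1i2 and Nr1i3 differed by -0.55 (adjusted p = 0.0303, under a 1.5-fold change) and -0.98 (adjusted p = 0.0696) after TBI.

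Donor supply had 1 call in 8 genes. Ugp2, which makes the UDP-glucose from which UDP-glucuronic acid is formed, read 14.90, 14.85 and 14.21 in control, 13.38, 13.03 and 13.19 in TBI and 13.74, 13.85 and 13.97 in HSC + TBI. It fell by 1.45 after TBI (SE 0.20, adjusted p = 0.00463), and all HSC + TBI rats lay between the other groups, with a difference from control of -0.80 (adjusted p = 0.0669). Ugdh, the next enzyme on that route, differed by -0.54 after TBI (adjusted p = 0.0819). Papss2, which makes PAPS, differed by -0.09.

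Glutathione supply had 1 call in 7 genes, Chac1, a glutathione-degrading enzyme that rose by 4.0 after TBI (adjusted p = 0.0194). The subunits of glutamate-cysteine ligase were not called, with Gclc at 0.31 after TBI. Gclm was above background on 3 control arrays but on only 1 TBI and 1 HSC + TBI array, so no size is given for it.

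Export had 2 lower calls in 7 genes after TBI. Abcc2, the canalicular pump for glutathione and glucuronide conjugates, read 14.37, 14.17 and 14.28 in control, 13.37, 13.26 and 13.37 in TBI and 13.77, 13.65 and 13.46 in HSC + TBI. It fell by 0.94 after TBI (SE 0.12, adjusted p = 0.00393) and by 0.65 after HSC + TBI (adjusted p = 0.0271). Abcb1a, a canalicular drug pump, read 4.83, 4.35 and 4.28 in control, 3.08, 3.39 and 3.74 in TBI, where 2 of 3 arrays were above background, and 4.71, 4.77 and 5.11 in HSC + TBI. It fell by 1.09 after TBI (adjusted p = 0.0205) and rose by 1.46 for HSC + TBI against TBI (adjusted p = 0.0303). With normexp background correction these differences were -0.16 and 0.28 and were not called.

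Of 13 other conjugating or paired detoxifying enzymes, 2 rose and 4 fell after TBI. Nat8, an acetyltransferase that completes mercapturic acids from glutathione conjugates, read 13.11, 13.37 and 12.68 in control, 11.31, 11.18 and 11.01 in TBI and 11.74, 12.02 and 12.25 in HSC + TBI. It fell by 1.89 after TBI (adjusted p = 0.00199) and by 1.05 after HSC + TBI (adjusted p = 0.0311). Akr7a3, an aflatoxin aldehyde reductase, fell by 1.47 (adjusted p = 0.047), Por, the electron donor of the cytochromes P450, by 0.86 (adjusted p = 0.0387) and Glyat, which joins glycine to acyl-CoAs, by 0.60 (adjusted p = 0.0469). Each of these 3 calls was lost with 7 or 8 of the 9 rats left out in turn. Aldh1a1, a retinal and aldehyde dehydrogenase, rose by 1.42 after TBI (adjusted p = 0.0205) and by 1.79 after HSC + TBI (adjusted p = 0.0133). Nat2, an arylamine acetyltransferase, rose by 1.89 after TBI (adjusted p = 0.0259) and differed by 0.31 from control after HSC + TBI. For HSC + TBI against TBI, 0 of these 13 genes, Nat2 included, were called.

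The calls of Nfe2l2, Ugp2, Abcc2 and Nat8 after TBI were kept with each of the 9 rats left out, whereas Sult1c2, Gstt2 and Gstp3 were kept in 6, 3 and 2 of the 9 cases, and Abcb1a, Nat2, Aldh1a1 and Chac1 in 7, 7, 6 and 6. After HSC + TBI against control, Nfe2l2, Aldh1a1, Nat8 and Abcc2 were kept in 7, 6, 5 and 3 cases, and Abcb1a against TBI in 3. For a single gene, the smallest p of a two-sided exact permutation test of 3 against 3 rats is 0.1.

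**Figure D5:**
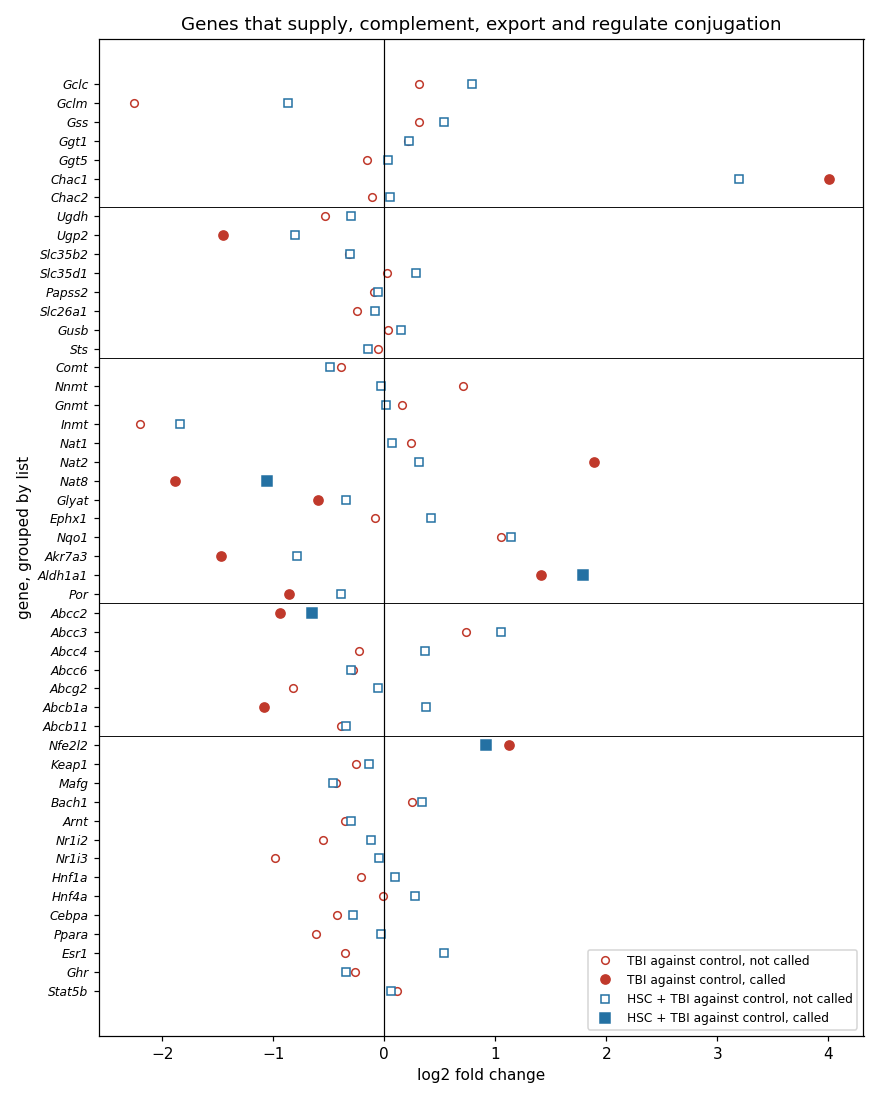
Log2 fold changes of the 49 supplying, complementing, exporting and regulating genes after TBI (red circles) and after HSC + TBI (blue squares), both against control. Filled symbols are called, and lines separate the lists in the order glutathione supply, donor supply, other enzymes, export and regulators. Nfe2l2 is filled in both comparisons at 1.12 and 0.91. The Gclm points rest mostly on arrays where it was not above background and are not a measured size.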

How the data were processed

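Liver RNA of 9 rats, 3 per group by the sample labels, was hybridized to 1-colour arrays. The authors read spot intensity with Feature Extraction 10.7.3.1 and deposited its processed signal, which is background-subtracted, and also deposited quantile-normalized log2 values, used here as an alternative. Here the processed intensity was floored at 1, put on the log2 scale, quantile normalized across arrays and averaged per probe, leaving out control and outlier spots (84 to 115 outliers and 0 saturated spots per array). A missing value left that rat out of that probe's fit. A probe was above background where over 0.5 of its spots were flagged so. Of 41012 probes, 25369 passed the filter and were tested in 1 fit of the 3 group means with limma 3.58.1 in R 4.3.3. The methods' t-test was an alternative.

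RefSeq genes of GRCr8 named 16968 probes by accession. The tested probes cover 9604 named genes. Text names cover called members, the 10 members with the largest differences in each comparison, members whose probes disagree, and called genes of the lists. Members and lists were chosen with earlier results of these data known. The number of arrays limits the precision. Each limma p-value sets a difference between groups against the spread of rats within groups. That spread does not hold slide differences between groups. The scripts were tested on simulated data. Replicate numbers were not treated as pairs, since the labels do not say that a number is shared across groups. Of 9 same-number correlations (-0.14 to 0.19), 2 exceeded 0.1, and these were in TBI against control. The alternatives are given at the end.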

Additional observations from a re-analysis of the deposited data

Results flagged for a closer look

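Ugt2b1 differed between the irradiated groups. Its log2 difference from control was 0.07 after TBI and 0.93 after HSC + TBI. The difference between these, tested as HSC + TBI against TBI, was 0.86 (limma adjusted p = 0.0404). No other member passed this test. All 3 HSC + TBI rats lay above all 3 TBI rats, and 21.4% of all probes also had no overlap between these groups. The call was kept in 2 of the 9 cases with 1 rat left out. No group received HSC alone, and slide and group were confounded. A changed response to irradiation therefore cannot be told apart from an effect of HSC alone or of the slide. Groups of 3 rats were too small for a test of outlying rats.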

How the results depend on the processing

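The counts of called members (3 for TBI against control, 1 for HSC + TBI against control, 1 for HSC + TBI against TBI, 1 by the F-test) depended on the settings. For TBI against control the count was 1 with the 75th percentile shift, without the filter on dim probes and with probes of a gene averaged, 0 with only the compared groups in the fit, and 5 where any tested probe could carry the call. Ugt2b1 stayed called against control in each limma setting. For HSC + TBI against TBI the count was 0 without the filter, with probes above background on all 9 arrays, with only the compared groups, and with the replicate block, which gave 2 by the F-test and changed no other of these counts by over 1.5 times. HSC + TBI against control gave 2 with only the compared groups. The methods' t-test called 5 and 2 members against control at an unadjusted p and 0, 0 and 0 after Benjamini-Hochberg adjustment. Normexp gave 3 by the F-test and the methods' analysis of variance 2. The slide as a random block gave 9, 2, 3 and 24 in the same order, with an estimated correlation within slides of -0.33. Each slide held 1 group only, so this block cannot account for slide differences between groups. Its higher counts are therefore not read as firmer calls. With each rat left out in turn the counts ranged from 0 to 5, 1 to 2, 0 to 2 and 1 to 3. Without any 1 control rat, 0 members were called for TBI against control.

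Reversed signs were near 0: the second Ugt1a2 probe (HSC + TBI against TBI) at 0.0050 with the 75th percentile shift, the Ugt1a2 brightest probe (0.03), which ranged from -0.076 to 0.106 over the rats left out and was below 0 without TBI 2 and without HSC + TBI 3, and the second Gstp1 probe (-0.04), which ranged from -0.084 to 0.057 and was above 0 without the same rats. The 75th percentile shift moved the split of members from 15 higher and 24 lower to 18 and 21 for TBI against control. For HSC + TBI against control the split moved from 20 and 19 to 27 and 12. For HSC + TBI against TBI it moved from 29 and 10 to 34 and 5. The all-probe medians under this shift were 0.03, 0.05 and 0.04. Among all called probes, the share that was higher moved from 48.9% to 57.5%, 36.7% to 38.6% and 29.2% to 13.7%. The cause of these changes between settings was not tested. Paralog probes and the confounding of slide with group limit every value.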
